A study of Mus musculus with 2 samples.

Results

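The genes described here are 8 members of the cellular response to low oxygen, built around the hypoxia-inducible factor HIF: Hif1a, Egln1, Egln3, Slc2a1, Pdk1, Vegfa, Adm and Ndrg1. They were chosen by gene symbol, and all 8 were found among the 16614 genes listed in both libraries. The study is about FoxO3, a transcription factor of the forkhead family, and the formation of osteoclasts, the bone-resorbing cells that arise from macrophages. Marrow from the femur and tibia of C57BL/6 mice was kept in M-CSF for 3 days, which yields macrophages, and then in RANKL, the cytokine that starts osteoclast formation, for 2 days. One poly-A RNA library came from wild-type (WT) cells and one from Foxo3 knockout (KO) cells. Both genotypes received M-CSF and RANKL, no library without RANKL was compared, and the labels give no oxygen level. The labels do not give the age or sex of the mice, how many mice a library holds, or how the Foxo3 allele was made.

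HIF is a pair of proteins, an oxygen-regulated alpha subunit and a stable partner, ARNT. When oxygen is present, prolyl hydroxylases encoded by the Egln genes mark the alpha subunit, and the VHL ubiquitin ligase has it destroyed. When oxygen is scarce the alpha subunit escapes, enters the nucleus and switches on genes for glucose uptake, glycolysis and blood vessel growth. The mRNA of Hif1a therefore does not measure the amount of HIF protein. In the osteoclast lineage HIF is known for its part in energy metabolism and in bone resorption. FoxO3 has been tied to the pathway as an activator of Cited2, a competitor of HIF for its coactivators.

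HIF binds a short core sequence, ACGTG or GCGTG, in the control regions of its targets. Upstream windows of 250 bases before the RefSeq transcript start, on the GRCm38.p6 assembly, were found for 7 of the 8 members. Ndrg1 had no entry. The windows of Adm and Vegfa are printed because these members were the highest in the KO library relative to WT. That of Pdk1 stands for the members with nearly equal values, of which Slc2a1 was nearer to equal. None of the 3 printed windows overlaps an annotated exon of its gene. Capitals mark the core on either strand, so that CACGT and CACGC are the same core read from the other strand.
Adm, chr7:110627407-110627656, plus strand: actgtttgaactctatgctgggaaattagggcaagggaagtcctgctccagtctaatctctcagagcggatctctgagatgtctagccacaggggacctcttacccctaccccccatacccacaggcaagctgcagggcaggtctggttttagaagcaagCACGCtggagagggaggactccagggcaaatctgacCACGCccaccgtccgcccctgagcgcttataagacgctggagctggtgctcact
Vegfa, chr17:46032378-46032627, minus strand: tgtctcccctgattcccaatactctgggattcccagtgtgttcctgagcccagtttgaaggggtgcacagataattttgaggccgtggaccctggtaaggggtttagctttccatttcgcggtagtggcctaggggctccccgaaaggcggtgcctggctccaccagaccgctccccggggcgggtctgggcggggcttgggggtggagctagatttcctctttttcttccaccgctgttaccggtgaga
Pdk1, chr2:71872974-71873223, plus strand: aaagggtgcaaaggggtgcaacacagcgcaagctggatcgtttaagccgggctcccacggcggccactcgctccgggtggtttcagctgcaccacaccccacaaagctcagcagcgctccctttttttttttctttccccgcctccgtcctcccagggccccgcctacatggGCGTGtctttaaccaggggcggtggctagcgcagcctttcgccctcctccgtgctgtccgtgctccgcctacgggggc
The Adm window holds 2 cores and the Pdk1 window 1 core. The printed Vegfa window holds 0, which says only that these letters are not in this stretch. A second RefSeq start of Vegfa, inside the gene, has 2 cores in its window, but 218 of those 250 bases lie in annotated exons of Vegfa. A second start of Pdk1, also inside its gene, has 0 cores in a window that lies wholly in annotated exons. Hif1a, whose window holds 3 matches, has a CACGTG that reads as a core on both strands and counts as 2 of them. Slc2a1 and Egln1 hold 2 each and Egln3 holds 1. Annotated exons of the gene cover the last 70 bases of the Egln1 window and the last 34 of the Slc2a1 window. The Egln1 core at -68 to -64 from the start lies in that exon stretch, and the Slc2a1 core at -36 to -32 partly does. Of all 32851 windows in the same table, 38.6% hold at least 1 core, so a match is common and marks no binding site by itself.

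Values are FPKM, fragments per kilobase scaled to library size, which allow levels of different genes to be compared. Each comparison is given as the log2 ratio, log2(KO + 1) minus log2(WT + 1), so that values above 0 are higher in the KO library, and genes of low FPKM have their difference understated. A gene counted as measured when it reached 1 FPKM in at least 1 library, as 10003 genes did. With 1 library per genotype there is no replicate error and no test. Every difference below describes these 2 libraries, and fixed sizes of 2-fold, 1.5-fold and 1.2-fold on this scale stand in for a threshold. Read totals are not given. From the lowest values of genes with a single annotated transcript, a single fragment on a transcript of 1 kb was estimated to be worth 0.0397 FPKM in WT cells and 0.0280 FPKM in KO cells, which makes the KO library 1.42 times as deep. A separate estimate, from the fullest bin of KO/WT ratios among low genes, was 1.39. Foxo3 itself (chromosome 10, 42181841 to 42276755) stood at 10.3 FPKM in WT cells against 0.548 FPKM in KO cells. Osteoclast genes were abundant in both libraries, with Acp5 at 7737 and 8636 FPKM and Ctsk at 6106 and 6862 FPKM. The macrophage genes Cd68 (1573 and 1546 FPKM) and Lyz2 (7501 and 5674 FPKM) were also high, so markers of both kinds were present in the cells labelled macrophages.

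The hypoxia genes did not move as a block. Vegfa and Adm, which encode secreted factors, were higher in the KO library, Ndrg1 was lower, and Hif1a, Egln1, Slc2a1 and Pdk1 were almost equal. Egln3 was barely detected. Of the 7 members measured, 3 had a log2 ratio above 0 and 4 below, against 57.6% of all measured genes above 0. Their median log2 ratio was -0.01, beside 0.03 for all measured genes. None of the 7 reached 2-fold in either direction, as 0.120% of measured genes did upwards and 0.200% downwards. At 1.5-fold 0 members were higher, against 0.410% of measured genes, and 1 member, Ndrg1, was lower, against 0.940%. Both depend on the scale: with a pseudocount of 0.25 Adm was also higher by 1.5-fold, and with a pseudocount of 5 Ndrg1 no longer passed, nor was it measured at a minimum of 10 FPKM. At 1.2-fold the higher members were Vegfa and Adm, where 4.93% of measured genes passed, and the lower one was again Ndrg1, where 6.23% passed. Adm did not pass 1.2-fold with a pseudocount of 5. The 4 others had absolute log2 ratios of 0.08 or less, and 52.8% of all measured genes lay within 0.1 of 0.

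**Figure D1:**
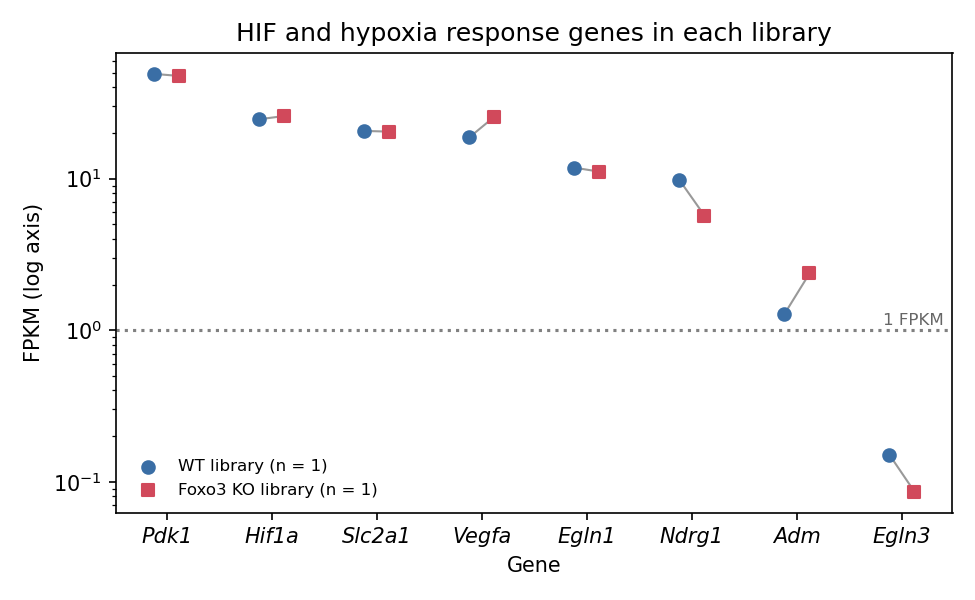
FPKM (log axis) of the 8 hypoxia genes in the WT library (blue circles) and the Foxo3 KO library (red squares), 1 library each, ordered by WT level. Lines join the 2 values of a gene: those of Vegfa and Adm slope up, that of Ndrg1 slopes down, and Egln3 lies under 1 FPKM in both.

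Hif1a (chromosome 12, 73901375 to 73947530) encodes the oxygen-regulated subunit of the main HIF complex. It stood at 24.7 FPKM in WT cells against 25.9 FPKM in KO cells, giving a log2 ratio of 0.07. Of the 1928 measured genes of like level (mean log2 value within 0.5), 35.9% had a ratio at least as high, so Hif1a sat near the middle of them. Its exons overlap those of Gm15283 and Gm49321, and strand use in counting is not given.

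Egln1, the prolyl hydroxylase PHD2 and the main oxygen sensor of most cells (chromosome 8, 124908587 to 124949324), stood at 11.8 FPKM in WT cells against 11.1 FPKM in KO cells. Its log2 ratio was -0.08, and 21.1% of 2175 genes of like level were as low or lower. Egln3, the inducible hydroxylase PHD3 (chromosome 12, 54178981 to 54203860), was listed at 0.151 FPKM in WT cells against 0.0859 FPKM in KO cells. By the depth estimate and a transcript of 2662 bases, this amounts to about 10.1 and 8.16 fragments. A difference in Egln3 was not detectable at this depth. Egln3 is commonly induced by HIF in other cells, and here it was the lowest of the 8 genes in both libraries.

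The rest of the oxygen-sensing machinery was near equal too. Egln2, the third hydroxylase of the family, was the most abundant of them at 29.2 FPKM in WT cells against 30.8 FPKM in KO cells. Hif1an, the asparaginyl hydroxylase FIH that blocks HIF from its coactivators, stood at 8.32 and 8.03 FPKM. Vhl stood at 8.81 and 8.10 FPKM (log2 ratio -0.11). HIF partners showed differences as small: Arnt stood at 15.2 FPKM in WT cells against 14.8 FPKM in KO cells, and Epas1, which encodes the related subunit HIF2A, at 3.07 and 3.16 FPKM. Hif3a was listed at 0 in both libraries.

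Across the list of 24 HIF subunits and regulators, 20 were measured and 13 of them were higher in the KO library, against 57.6% of all measured genes, or 10 against 50.1% after trimmed-mean scaling. Their median log2 ratio was 0.02. At 1.2-fold 0 of the 20 passed in either direction, where 4.93% of measured genes passed upwards and 6.23% downwards. The gene farthest from 0 was Cited2, at 128.4 FPKM in WT cells against 150.7 FPKM in KO cells, giving a log2 ratio of 0.23. At 10 FPKM or more in 1 library, the next were Eloc and Ep300, with ratios of 0.12 and -0.10: Eloc encodes a subunit of the VHL ligase, listed under its older symbol Tceb1, and Ep300 a HIF coactivator. A ratio as high as that of Cited2, or higher, was seen in 6.81% of all measured genes.

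Slc2a1 encodes GLUT1, the glucose transporter that serves basal uptake and is a standard HIF target (chromosome 4, 119108711 to 119137983). It stood at 20.7 FPKM in WT cells against 20.4 FPKM in KO cells, giving a log2 ratio of -0.01. Its exons overlap those of Gm12868. Of 11 transporters of the SLC2A family 5 were measured, and all 5 had ratios below 0, against 42.4% of all measured genes. The ratios ran from -0.24 to -0.01, and Slc2a6 and Slc2a8, both at -0.04, lay close to 0 as Slc2a1 did. All 5 stayed below 0 under both scalings, while 50.1% of all measured genes were above 0 after trimmed-mean scaling. Slc2a1 was the most abundant of the 5. Slc2a3, the high-affinity transporter GLUT3 and another HIF target, stood at 1.23 and 0.886 FPKM. No SLC2A gene reached 1.2-fold, which 4.93% of all measured genes did upwards and 6.23% downwards.

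Pdk1 encodes a pyruvate dehydrogenase kinase, which keeps pyruvate out of the mitochondria and is switched on by HIF (chromosome 2, 71873224 to 71903858). It was the most abundant of the 8 genes, at 49.2 FPKM in WT cells against 47.6 FPKM in KO cells, with a log2 ratio of -0.04. The other kinases were close to equal as well: Pdk2 stood at 18.1 and 19.5 FPKM and Pdk3 at 34.1 and 36.5 FPKM. Pdk4, a known FoxO target in muscle and liver, was listed at 0.0748 FPKM in WT cells against 0.0179 FPKM in KO cells, too low to compare.

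The enzyme complex that these kinases restrain had higher values in the KO library. Pdha1 stood at 145.4 FPKM in WT cells against 161.0 FPKM in KO cells, Pdhb at 222.5 and 266.2 FPKM, and Dlat at 49.9 and 60.1 FPKM. These genes encode the catalytic subunits of pyruvate dehydrogenase. The largest ratio of the list was that of Mpc2, a subunit of the mitochondrial pyruvate carrier, at 90.6 and 116.6 FPKM (log2 ratio 0.36). In all, 11 of 13 measured genes of the list were higher, against 57.6% of all measured genes, with a median of 0.13, and the 2 lower ones were Pdk1 and the phosphatase gene Pdp1 (6.33 and 4.71 FPKM). Under either scaling 10 of the 13 were higher, against 50.1% of all measured genes after trimmed-mean scaling. At 1.2-fold, 2 of the 13, Mpc2 and Dlat, were higher, beside 4.93% of measured genes, and 1, Pdp1, was lower, beside 6.23%. Dlat only just passed, with a log2 ratio of 0.2631, and either scaling takes it below 1.2-fold.

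Vegfa encodes the vascular endothelial growth factor VEGF-A, the best-known HIF target (chromosome 17, 46016993 to 46032369). It stood at 18.7 FPKM in WT cells against 25.7 FPKM in KO cells, 1.37 times the WT value. The log2 ratio was 0.44, and 98 of the 10003 measured genes, Vegfa included, were as high or higher. Among 2044 genes of like level 0.489% had a ratio as high. By the depth estimate and a transcript of 3451 bases its values stand for about 1624 and 3163 fragments. Variation between cultures is unknown. The exons of Vegfa overlap no other annotated gene.

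A relative of Vegfa had a ratio of similar size. Vegfb, another VEGF ligand and not a classic HIF target, stood at 33.5 FPKM in WT cells against 44.3 FPKM in KO cells (log2 ratio 0.39). Vegfc stood at 7.63 and 8.62 FPKM, and Pgf, placental growth factor, at 1.68 and 1.52 FPKM. Vegfa and Vegfb were thus the VEGF ligands that passed 1.2-fold in these libraries, as 4.93% of all measured genes did upwards. Of the receptors, Nrp1, a VEGF co-receptor, was lower at 34.2 FPKM in WT cells against 25.7 FPKM in KO cells (log2 ratio -0.40), while its relative Nrp2 stood at 293.6 and 328.0 FPKM. Of the 10 VEGF ligands and receptors 6 were measured, and 1 of them, Nrp1, was lower by 1.2-fold, beside 6.23% of measured genes. Kdr, the main signalling receptor of endothelial cells, was under 1 FPKM in both libraries, as were Flt1 and Flt4.

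Adm encodes adrenomedullin, a vasodilator peptide induced by HIF (chromosome 7, 110627661 to 110629820). It stood at 1.27 FPKM in WT cells against 2.37 FPKM in KO cells, 1.86 times the WT value. On the log2 ratio scale, where 1 FPKM is added, the difference was 0.57, and 47 of the 10003 measured genes, Adm included, were as high or higher. Among 1267 genes of like level 1.34% were as high. Adm is a gene of few fragments: with a transcript of 1390 bases, its values stand for about 44.5 fragments in WT cells and 117.4 in KO cells, at the unequal depths given above. Calcrl, the receptor for the peptide, stood at 16.3 and 15.3 FPKM. Its usual partners Ramp2 and Ramp3, which make it an adrenomedullin receptor, were each under 0.1 FPKM in both libraries, and Ramp1 stood at 0.558 and 0.540 FPKM. Pam, the enzyme that amidates the peptide, stood at 13.4 and 13.3 FPKM.

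Ndrg1, a stress-responsive gene whose mRNA is widely used as a marker of hypoxia, went the other way (chromosome 15, 66929318 to 66969640). It stood at 9.83 FPKM in WT cells against 5.71 FPKM in KO cells, 58.1% of the WT value. The log2 ratio was -0.69, and 65 of the 10003 measured genes, Ndrg1 included, were as low or lower. Among 2008 genes of like level 0.797% were as low. Its exons overlap those of Gm17035 and Gm2895, and reads of the 3 genes may not be separable. Its relatives did not share the direction: Ndrg3 stood at 19.1 and 22.0 FPKM (log2 ratio 0.19) and Ndrg4 at 6.17 and 7.07 FPKM (0.17), while Ndrg2 was near 0.1 FPKM in both.

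**Figure D2:**
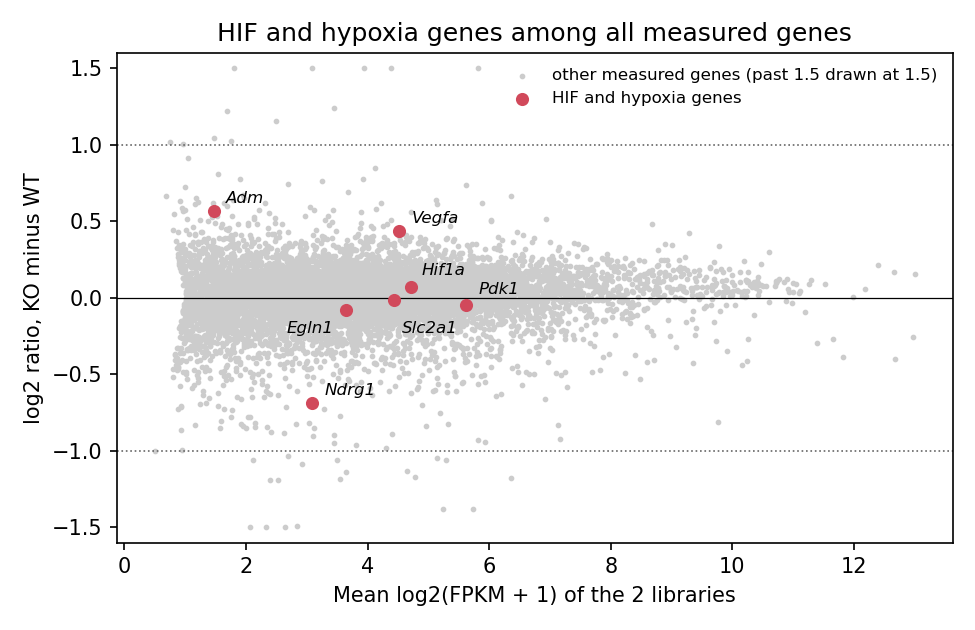
The log2 ratio of each measured gene (grey) against its mean log2(FPKM + 1) over the 2 libraries, with the 7 measured hypoxia genes in red and 2-fold as dotted lines. Vegfa at 0.44, Adm at 0.57 and Ndrg1 at -0.69 lie at the edges of the cloud, and the other 4 lie within it.

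**Figure D3:**
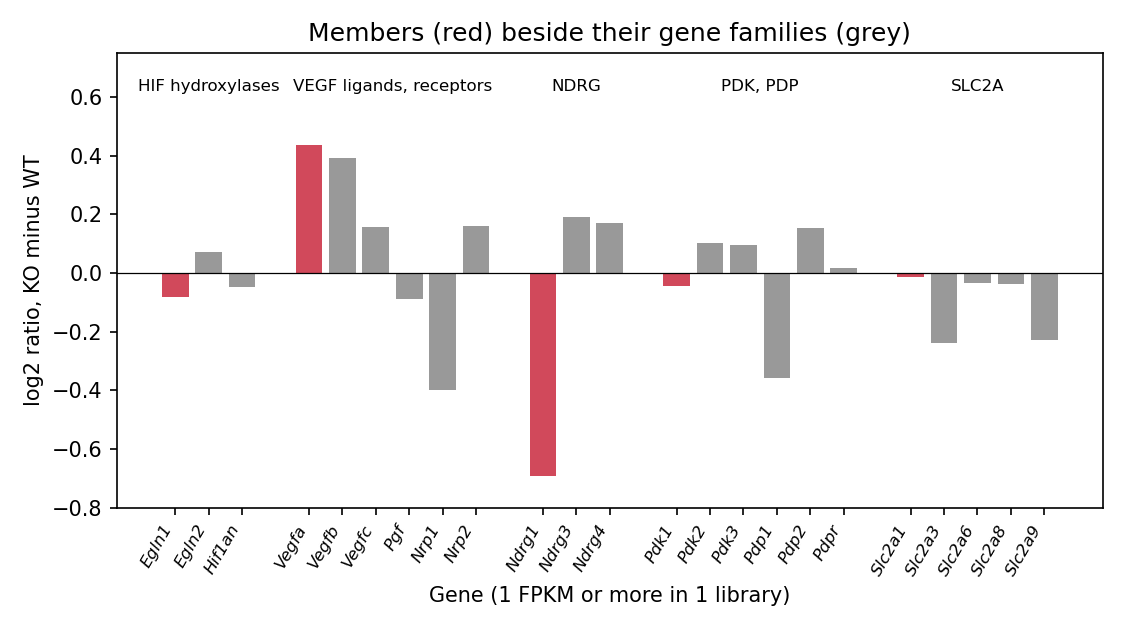
Log2 ratios (KO minus WT) of Egln1, Vegfa, Ndrg1, Pdk1 and Slc2a1 (red) beside measured relatives (grey), 1 library per genotype and no error bars. The groups are HIF hydroxylases, VEGF ligands and receptors, NDRG genes, pyruvate dehydrogenase kinase and phosphatase genes, and SLC2A transporters. Hif1a and Adm are not drawn. Vegfb stands beside Vegfa at 0.39, whereas Ndrg3 and Ndrg4 stand above 0 beside Ndrg1 at -0.69.

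Known HIF targets outside glycolysis lay on both sides of 0. The list has 55 genes, 7 of them among the 8 described here, and 42 were measured. Of these 22 had a ratio above 0 and 20 below, against 57.6% of all measured genes above 0, and their median was 0.01. Under either scaling 18 of the 42 were above 0, as were 50.1% of all measured genes after trimmed-mean scaling. At 1.2-fold 5 were higher, where 4.93% of measured genes passed, and 5 lower, where 6.23% passed. These calls include Vegfa, Adm and Ndrg1: without the 6 measured members, a comparison added after the data were seen, 3 of 36 were higher and 4 lower. The gene farthest from 0 was Hmox1, haem oxygenase, which is also a target of the oxidative stress factor NRF2, at 197.3 FPKM in WT cells against 103.5 FPKM in KO cells (log2 ratio -0.92). Mif, a cytokine gene, stood at 392.3 and 486.9 FPKM (0.31), and Jmjd6, a hydroxylase gene, at 15.4 and 18.8 FPKM (0.27). Bnip3, a mitophagy receptor gene and a common reporter of HIF activity, chosen after its values were seen, stood at 34.5 and 35.1 FPKM.

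Glycolytic enzymes that HIF is known to induce mostly had ratios a little above 0. Of 17 measured 16 were higher in the KO library, beside 57.6% of all measured genes, with a median log2 ratio of 0.14. Under either scaling 15 were higher, beside 50.1% of all measured genes after trimmed-mean scaling. Aldoc, an aldolase gene, stood at 42.9 FPKM in WT cells against 54.8 FPKM in KO cells (log2 ratio 0.35). Pfkp (22.4 and 26.9 FPKM) and Tpi1 (261.5 and 294.3 FPKM) had ratios of 0.25 and 0.17. The differences were small, with 2 of 17 higher by 1.2-fold, beside 4.93% of measured genes. These were Aldoc and Pfkm, the latter at 7.67 and 9.72 FPKM (log2 ratio 0.31), and Pfkp did not pass. The lower gene was Pfkfb3 at 5.90 and 4.77 FPKM. Slc2a1 and Pdk1, the members nearest to these enzymes in function, were not among the higher genes.

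**Figure D4:**
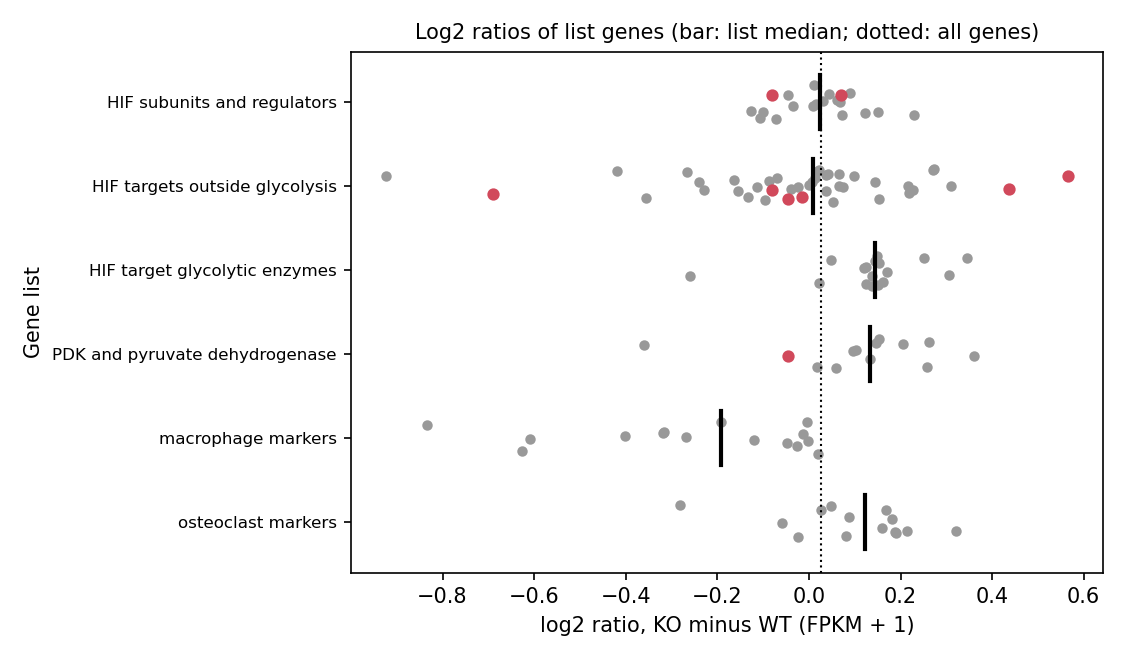
Log2 ratios (KO minus WT) of the measured genes of 6 lists, 1 point per gene, with the hypoxia genes in red, list medians as black bars and the median of all measured genes, 0.03, as a dotted line. Glycolytic enzymes have a median of 0.14, the 2 broader HIF lists have medians of 0.02 and 0.01, and macrophage markers one of -0.19.

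Markers of the 2 cell states in the culture differed between the libraries alongside these values. Of 15 measured macrophage markers, 14 had a ratio below 0 (median log2 ratio -0.19), against 42.4% of all measured genes. At 1.2-fold 7 of the 15 were lower, beside 6.23% of measured genes, and 0 were higher, beside 4.93%. At 1.5-fold 3 were lower, beside 0.940%. The summed level of the list was 11158 FPKM in the WT library against 9128 FPKM in the KO library. Lyz2 alone, at 7501 and 5674 FPKM, made up most of both sums and most of the difference between them. Osteoclast markers were higher in 11 of 14 cases (median 0.12), against 57.6% of all measured genes, or in 10 of 14 against 50.1% after trimmed-mean scaling. The lower ones were Itgb3, Calcr and Dcstamp, with log2 ratios of -0.28, -0.06 and -0.02. Most osteoclast differences were small: at 1.2-fold 1 of the 14 was higher, beside 4.93% of measured genes, and 1, Itgb3, was lower, beside 6.23%. The summed level was 21911 FPKM in the WT library against 24639 FPKM in the KO library, most of it from Acp5, Ctsk and Mmp9. Fewer cells of a type and less RNA per cell cannot be told apart in such bulk samples. The part of these markers in the values of Vegfa, Adm and Ndrg1 was not tested. Endothelial cells, a usual source of Adm and VEGF receptors, were near absent by their markers: 5 of 6 were found, none reached 1 FPKM, Emcn was listed at 0 in both libraries, and the summed level was 0.952 and 0.912 FPKM. Stromal and osteoblast markers summed to 10.1 and 10.2 FPKM over 12 genes, led by Col1a1 at 3.35 and 3.24 FPKM. Lymphoid markers summed to 0.275 and 0.438 FPKM, with Cd3e and Nkg7 at 0 in both libraries. Neutrophil markers, led by S100a8 (70.2 and 67.0 FPKM), summed to 159.7 and 155.7 FPKM, and dendritic markers to 1.65 and 2.16 FPKM. Of the erythroid and megakaryocyte markers only Pf4, which macrophages also express, reached 1 FPKM, at 55.7 and 26.2 FPKM.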

How the data were processed

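RNA of 2 libraries, 1 WT and 1 Foxo3 KO, was assigned by the labelled genotype. The authors deposited 1 value per gene, read here as FPKM: no header or label names the unit, but the values are not whole and the lowest scale inversely with transcript length. An apparent constant of 0.000001 in every value was subtracted. TopHat, edgeR and build mm10 are named, without versions or roles, per the submitters' processing notes; which quantifier, annotation and filters were used is not given in the sources used here. No count model was used.

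The measure was the log2 ratio with a pseudocount of 1 FPKM. Depth was estimated from values under 0.1 FPKM of genes with 1 GENCODE M21 transcript longer than 1500 bases. The estimate and the fold rules were tested on simulated data. Coordinates and exon overlaps, regardless of strand, are from GENCODE M21 on mm10, and upstream windows are from RefSeq on GRCm38.p6. Members and 17 other lists were chosen with earlier results of these data known; 233 of 238 list entries were found, 6 through a synonym. Named beyond the members and their families were Epas1, Arnt, Vhl, Cited2, the 3 genes of each other pathway list farthest from 0 at 10 FPKM or more, and the most abundant markers. Other genes were chosen after their values were seen, including Pfkm, Pfkfb3, Mmp9, Itgb3, Calcr, Dcstamp, Emcn, Cd3e and Nkg7.

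Alternatives were pseudocounts of 0.25 and 5, trimmed-mean scaling, centring on the median gene, no minimum, a minimum of 10 FPKM, means for medians, and, added later, no pseudocount. Python 3.11.15, numpy 2.4.6, pandas 2.3.3 and matplotlib 3.10.9 were used.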

Additional observations from a re-analysis of the deposited data

How the results depend on the processing

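Of 173 recomputed values, 163 moved by less than the spread of genes of like level or of the list, or, for counts, by less than 1.5 times, and none changed sign beyond that spread. For a list median the limit was the spread of its genes, so a small median could change sign within it. Several did, such as the HIF regulators (0.0232 to -0.0007) and the HIF targets outside glycolysis (0.0095 to -0.0135) under trimmed-mean scaling. Means for medians moved the NDRG family from 0.1706 to -0.1100 and the members from -0.0149 to 0.0346. Without a minimum the VEGF list moved from 0.1579 to -0.0182. The 10 values past these limits follow from the pseudocount or the minimum. Adm had a log2 ratio of 0.2318 with a pseudocount of 5 and of 0.8943 without any, an alternative chosen after seeing the data. That of Ndrg1 was -0.4694 at the pseudocount of 5, and that of Egln3 was -0.2558 at 0.25. At 0.25, 1 member (Adm) was higher by at least 1.5-fold. At 5, 0 members were lower by 1.5-fold and 1 was higher by 1.2-fold. A minimum of 10 FPKM leaves out Adm and Ndrg1, which gave 0 lower members at 1.5-fold, 0 lower at 1.2-fold and 1 higher at 1.2-fold. Both scalings lowered log2 ratios by about 0.03 and left the direction of all 7 measured members as it was. No paired analysis was possible because each genotype has 1 library, so none could be left out either. Depth limits Egln3 and Adm most.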

Other observations

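Some HIF targets, chosen after their values were seen, paired a lower with a higher or near-equal relative. Bhlhe40 and Bhlhe41 encode related repressors of the circadian clock that HIF induces. Bhlhe40 stood at 129.1 FPKM in WT cells against 151.3 FPKM in KO cells, giving a log2 ratio of 0.23, while Bhlhe41 stood at 3.31 and 2.22 FPKM, a log2 ratio of -0.42. P4ha1, a collagen prolyl hydroxylase gene, stood at 14.0 and 11.5 FPKM and its relative P4ha2 at 3.05 and 3.27 FPKM. The histone demethylase genes Kdm3a (22.9 and 20.8 FPKM), Kdm4b (6.94 and 7.17 FPKM) and Kdm4c (7.29 and 7.36 FPKM) had log2 ratios of -0.13, 0.04 and 0.01. Mxi1, a MYC antagonist described as a target of both HIF and FoxO3, was at 9.33 and 7.07 FPKM, a log2 ratio of -0.36, and Gys1, a glycogen synthase gene, at 20.8 and 25.3 FPKM, a log2 ratio of 0.27.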
